A study of Homo sapiens with 21 samples.

Results

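The 7 genes described here encode enzymes that build glycosphingolipids, and they were taken from the normalized read count table by symbol: *UGCG*, *B4GALT5*, *B4GALT6*, *A4GALT*, *ST3GAL5*, *ST8SIA1* and *B4GALNT1*. They were 7 of 23201 gene symbols, and all 7 were among the 13343 genes with a mean of at least 10 over all libraries that were tested. The samples were HMLE cells, immortalized mammary epithelial cells of human origin that are kept as an established line. The cells were untreated (d0) or had been treated with TGFβ, a cytokine that drives epithelial cells into an epithelial-to-mesenchymal transition (EMT), for 1, 4, 7, 10, 15 or 20 days (d1 to d20). Each of the 7 timepoints had 3 libraries of this 1 line, 21 in all, and the untreated cells at d0 were the control for every day. The p-values therefore measure the spread between libraries of 1 cell line. No untreated cells of a later day are among the samples, so the treatment and the time in culture cannot be told apart.

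Glycosphingolipids are membrane lipids with a sugar chain on ceramide. UGCG adds the first sugar to give glucosylceramide, and B4GALT5 or B4GALT6 adds galactose to give lactosylceramide, from which the series branch. A4GALT makes Gb3 and opens the globoside branch, ST3GAL5 makes GM3 and opens the ganglioside branch, ST8SIA1 extends GM3 to GD3, and B4GALNT1 turns GM3 and GD3 into GM2 and GD2. These lipids mark the surface of epithelial and mesenchymal cells, and gangliosides such as GD2 are used as markers in breast cancer.

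The libraries held between 18847917 and 22667754 reads, and 3 reads in a library were worth 2.54 to 3.18 units of the deposited normalized read count. The EMT genes moved in the treated cells. *VIM*, which encodes a mesenchymal intermediate filament, was higher on all 6 days, with log2 fold changes against d0 of 2.59 to 3.62. *ZEB1*, which encodes a repressor of epithelial genes, rose from a mean of 5.71 at d0 to 433 at d20. *CDH1*, which encodes E-cadherin, was lower by a log2 fold change of -1.33 at d20. It was lower by -0.35 at d4, -0.95 at d10 and -0.18 at d15. It did not pass at d1 (-0.099, adjusted p = 0.148, limma) or at d7 (0.0046, adjusted p = 0.95). The third d7 library, counted in column order, stood apart from the other two by a root mean square of 0.47 and 0.46 on the log2 scale, whereas the other two differed by 0.22. Over all genes it lay closer to d4 (0.43) than to its own timepoint (0.45), and each member's d7 result is therefore also given without it. In bulk RNA, a change in the share of cells that express a gene and a change in its RNA per cell cannot be told apart.

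The levels of the enzyme genes at d0 were set side by side per gene length. Per kb of the longest annotated transcript, *B4GALT5* had 328 ± 4.04 normalized read counts at d0 (SD, n = 3) and *B4GALT6* had 82.6 ± 3.97, both genes of the lactosylceramide step. *UGCG* had 63.6 ± 3.81, *B4GALNT1* 57.1 ± 1.78 and *ST3GAL5* 38.7 ± 2.73 on the same scale. *A4GALT* (5.83 ± 1.92) and *ST8SIA1* (1.62 ± 0.69) were the lowest, with 10 to 21 and 10 to 22 reads per library at d0. At d15 the levels per kb of *A4GALT* (27.7 ± 3.51) and *ST3GAL5* (25.2 ± 2.52) lay side by side. Which transcripts the cells used was not measured, so these levels per kb rest on the longest transcript.

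**Figure D1:**
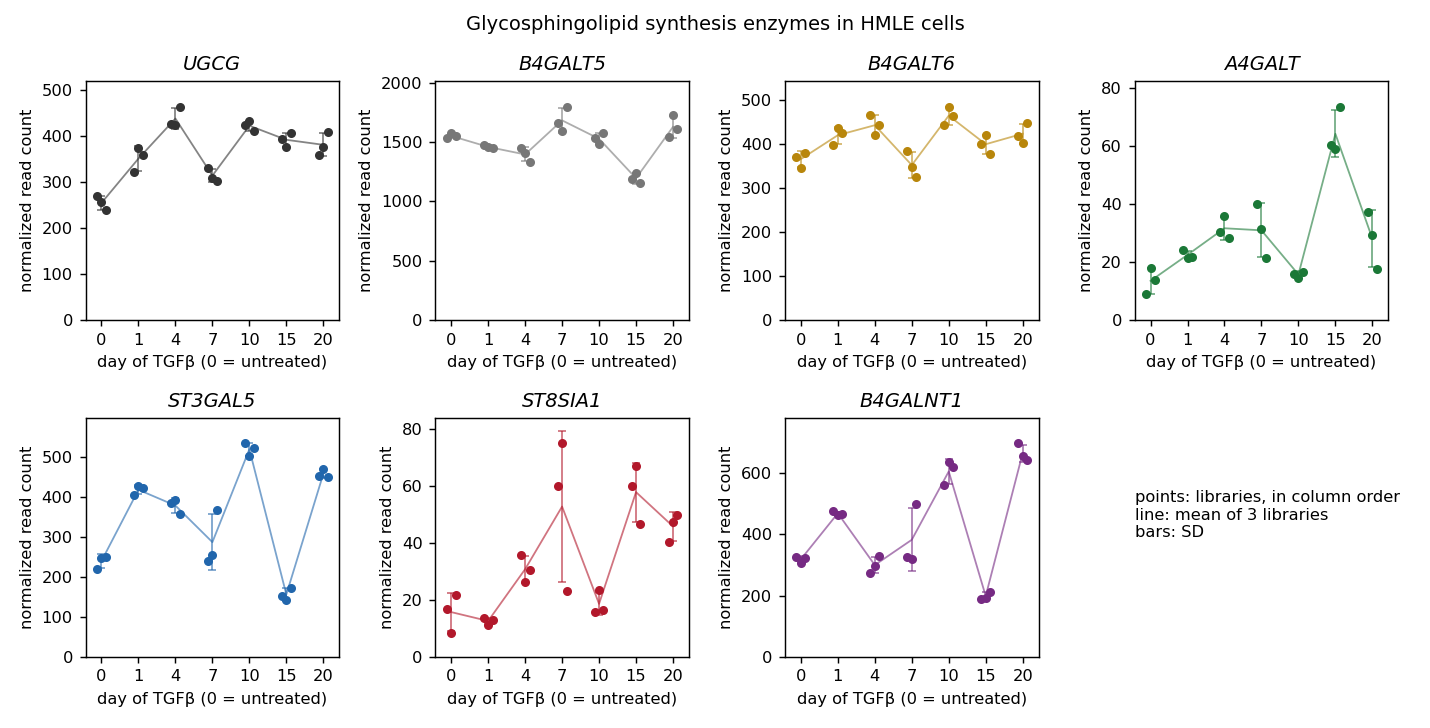
Normalized read count of each enzyme gene (y axis, starting at 0) in the 3 libraries of each timepoint, with the mean and SD, against the day of TGFβ treatment (x axis, days at even spacing). *A4GALT* has its highest mean at d15, 64.2, where *ST3GAL5* and *B4GALNT1* have their lowest means, 156 and 199. *ST8SIA1* has a mean of 57.9 at d15 and 52.8 at d7, or 67.6 at d7 without the third library.

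The gene of the first step was higher on every treated day. *UGCG*, the ceramide glucosyltransferase, had 269, 257 and 238 normalized read counts in the d0 libraries. At d4, where its mean was highest, it had 427, 424 and 464, and at d7, where the treated mean was lowest, it had 330, 310 and 302. No treated library of any day fell as low as the highest d0 library. The log2 fold change against d0 was 0.46 ± 0.07 at d1 (SE, limma, adjusted p = 7.98e-06), 0.78 ± 0.07 at d4 (adjusted p = 2.01e-09) and 0.30 ± 0.07 at d7 (adjusted p = 0.000672). Without the third d7 library the d7 value was 0.33 ± 0.08 (adjusted p = 0.000246). On d10, d15 and d20 it was 0.73, 0.62 and 0.58, each with a standard error of 0.07. *UGCG* was the member called in the same direction on all 6 days, although at d7 the log2 fold change was 0.11 (adjusted p = 0.164) when the libraries were scaled to equal totals. In the order of means, d4, d10, d15, d20, d1 and d7 were each not separated from the next, and the lowest of them, d7, was separated from d0.

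The genes of the second step changed little. *B4GALT5*, which encodes the main lactosylceramide synthase of many cells, had 1534, 1572 and 1546 normalized read counts at d0 and was lowest at d15, with 1189, 1242 and 1151. All 3 d15 libraries lay below every other library of the series. The log2 fold change against d0 was -0.38 ± 0.05 at d15 (adjusted p = 3.92e-07) and -0.15 ± 0.05 at d4 (adjusted p = 0.00748). At d7 it was 0.12 ± 0.05 (adjusted p = 0.0414). That call at d7 was lost without the third d7 library (0.07, adjusted p = 0.194) and when any d0 library was left out, and it turned to -0.08 with libraries scaled to equal totals. With that scaling *B4GALT5* was called lower at d1 (-0.28, adjusted p = 4e-05), d10 (-0.25, adjusted p = 0.000132) and d20 (-0.13, adjusted p = 0.0221). Quantile normalization also called *B4GALT5* lower at d1 (-0.19) and d10 (-0.17). *B4GALT6*, the second lactosylceramide synthase gene, had 371, 346 and 380 at d0, and 444, 485 and 464 at d10, its highest mean. On d1, d4, d10 and d20 its log2 fold change was 0.20, 0.27, 0.34 and 0.21, each called with a standard error of 0.07. The call at d1 was lost without the second d0 library (0.16, adjusted p = 0.084) or the second d1 library (0.17, adjusted p = 0.0687). The call at d20 was lost without the second d0 library (0.17, adjusted p = 0.0625) or the third d20 library (0.17, adjusted p = 0.0661). Neither d7 (-0.06, adjusted p = 0.478) nor d15 (0.13, adjusted p = 0.101) passed, and without the third d7 library the d7 value was -0.0009 (adjusted p = 0.992). Scaling libraries to equal totals moved the median log2 fold change of all tested genes to between -0.20 and -0.14 on the 6 days. With that scaling none of the 4 increases of *B4GALT6* passed, and the gene was called lower at d7 (-0.25, adjusted p = 0.00247). Quantile normalization called *B4GALT6* higher at d15 (0.15, adjusted p = 0.0422). The log2 ratio of *B4GALT6* to *B4GALT5* within a library was higher than the d0 mean by 0.50 at d15, with libraries from 0.48 to 0.52.

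The branch point gene of the globosides rose and fell more than once. *A4GALT*, the Gb3 synthase gene, lies on chromosome 22. Its first promoter window, the 250 bases before a RefSeq start site, is shown for the gene's wide range. With all libraries, its ratio between the highest and the lowest timepoint mean was the largest among the members (4.75). *ST8SIA1* had 4.60. Without the third d7 library *ST8SIA1* had a mean of 67.6 at d7 against 12.6 at d1, so this ranking rested on that library. Capitals mark matches to the SP1 motif (GGGCGG on either strand), which overlap in the middle of the run.
A4GALT, chr22:42720871-42721120, minus strand, GRCh38.p14: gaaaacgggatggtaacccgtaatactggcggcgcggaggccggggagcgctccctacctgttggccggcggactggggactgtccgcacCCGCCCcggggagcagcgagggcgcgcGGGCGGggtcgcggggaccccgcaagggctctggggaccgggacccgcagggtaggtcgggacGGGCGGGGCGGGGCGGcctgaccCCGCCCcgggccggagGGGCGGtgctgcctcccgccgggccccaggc
This window held 7 matches to GGGCGG. It held none to the E-box CACCTG or CAGGTG that ZEB and SNAI factors bind, to the SMAD element GTCTAGAC or to the AP-1 motif TGANTCA. At least 1 match to GGGCGG was found in 42.6% of all 34788 promoter windows, a share that does not compare numbers of matches. The bases of this window were 79.2% G or C. The second window of *A4GALT*, with 42% G or C, held 1 match to GGGCGG.

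*A4GALT* had 8.90, 17.8 and 13.9 normalized read counts at d0. It had 24.1, 21.5 and 21.8 at d1, and 30.5, 36.0 and 28.4 at d4. All libraries of d1 and d4 lay above those of d0. The d7 libraries had 40.1, 31.3 and 21.4, the d10 libraries 15.9, 14.6 and 16.6, and the d15 libraries 60.2, 58.8 and 73.6. Thus d10 fell back into the range of d0, and d15 lay above every other library. The d20 libraries spread from 37.1 and 29.5 down to 17.6, which overlapped d0.

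The log2 fold change of *A4GALT* against d0 was 0.74 ± 0.26 at d1 (adjusted p = 0.0195), 1.21 ± 0.26 at d4 (adjusted p = 0.000317) and 1.14 ± 0.26 at d7 (adjusted p = 0.000648). Without the third d7 library the d7 value was 1.38 ± 0.27 (adjusted p = 2.37e-05). The call at d1 rested on 10 to 23 reads per library. Without the first d0 library the change at d1 was 0.49 (adjusted p = 0.134), and without the first d1 library it was 0.69 (adjusted p = 0.0571). With libraries scaled to equal totals the change at d1 was 0.56 (adjusted p = 0.0628), and DESeq2 on the recovered reads gave an adjusted p of 0.0662. At d10 the difference from d0 was 0.25 ± 0.26 (adjusted p = 0.411). At d15 it was 2.21 ± 0.26 (adjusted p = 1.26e-07), a 4.62-fold increase, and at d20 it was 0.99 ± 0.26 (adjusted p = 0.00253). The steps between late days were larger than the spread as well: d15 exceeded d10 by 1.96 (adjusted p = 6.65e-07), and d20 was below d15 by -1.22 (adjusted p = 0.00028). In the order of means only d15 was separated from its neighbour.

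The branch point gene of the gangliosides changed in the opposite direction from d10 to d15. *ST3GAL5*, the GM3 synthase gene, has 5 RefSeq start windows on chromosome 2. The window with the single E-box match among the 10 windows of the 5 members that matched the promoter table (*UGCG*, *B4GALT5*, *A4GALT*, *ST3GAL5* and *ST8SIA1*) is shown, with the E-box and 1 SP1 match in capitals.
ST3GAL5, chr2:85888748-85888997, minus strand, GRCh38.p14: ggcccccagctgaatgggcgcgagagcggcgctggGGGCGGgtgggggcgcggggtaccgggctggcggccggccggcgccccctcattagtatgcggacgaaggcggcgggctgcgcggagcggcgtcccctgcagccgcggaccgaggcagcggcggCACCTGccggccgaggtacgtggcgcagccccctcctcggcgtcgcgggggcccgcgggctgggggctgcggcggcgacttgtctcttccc
The E-box is at position -91, counted from -1 at the base just before the start site. An E-box of these letters was present in 17.5% of all windows, and the match describes letters only, since no binding was measured.

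*ST3GAL5* had 220, 248 and 250 normalized read counts at d0, 405, 427 and 421 at d1, and 385, 392 and 356 at d4. It had 533, 501 and 521 at d10 and 452, 470 and 449 at d20. All libraries of these 4 days lay above d0. The d15 libraries, with 151, 143 and 173, all lay below d0 and below every other library. At d7 the libraries disagreed: the first and the second, with 239 and 253, lay near d0, and the third had 368.

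The log2 fold change of *ST3GAL5* against d0 was 0.80 ± 0.11 at d1 (adjusted p = 2.25e-06), 0.66 ± 0.11 at d4 (adjusted p = 1.75e-05), 1.11 ± 0.11 at d10 (adjusted p = 1.3e-08) and 0.93 ± 0.11 at d20 (adjusted p = 2.23e-07). At d15 it was -0.62 ± 0.11 (adjusted p = 3.13e-05). The value at d7 was 0.23 ± 0.11 (adjusted p = 0.0666), and it was 0.04 ± 0.08 without the third d7 library (adjusted p = 0.659). At d7 *ST3GAL5* was called higher by DESeq2 (0.26, adjusted p = 0.042). The same held without the first d7 library (0.35, adjusted p = 0.00844) or the second (0.31, adjusted p = 0.0292). From d10 to d15 *ST3GAL5* fell by 1.73 on the log2 scale, to 0.30 of its d10 level (adjusted p = 5.18e-12), and from d15 to d20 it rose by 1.55 (adjusted p = 5.72e-11).

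**Figure D2:**
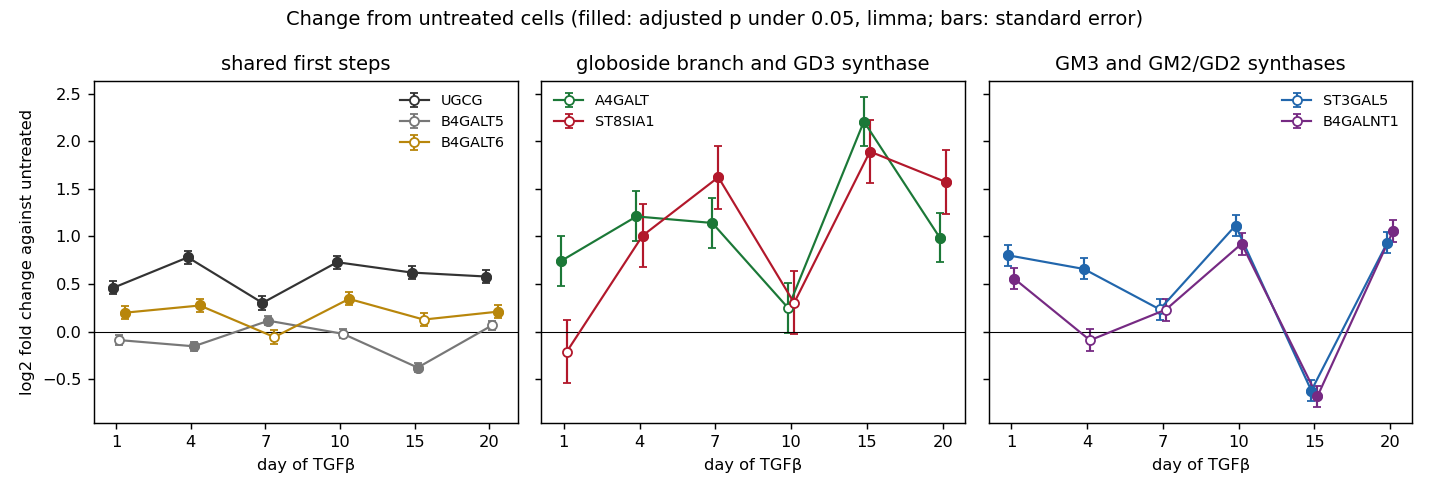
Log2 fold change against untreated cells (y axis) of the 7 genes by day of TGFβ (x axis, days at even spacing), with standard errors from limma and filled symbols where the adjusted p was under 0.05. *A4GALT* and *ST8SIA1* lie at 2.21 and 1.89 at d15, and *ST3GAL5* and *B4GALNT1* lie below 0 at d15 (-0.62 and -0.68).

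The genes of the later ganglioside enzymes were called in opposite directions at d15. *ST8SIA1*, the GD3 synthase gene on chromosome 12, is shown with its window because it encodes a ganglioside enzyme yet had a time course closer to that of *A4GALT*. Its single SP1 match is in capitals, and the window held none of the other motifs.
ST8SIA1, chr12:22334708-22334957, minus strand, GRCh38.p14: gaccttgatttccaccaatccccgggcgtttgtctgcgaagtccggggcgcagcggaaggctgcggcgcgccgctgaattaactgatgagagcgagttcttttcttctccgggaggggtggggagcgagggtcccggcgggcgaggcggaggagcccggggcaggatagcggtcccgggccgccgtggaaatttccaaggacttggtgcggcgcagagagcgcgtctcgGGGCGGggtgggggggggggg
*ST8SIA1* had 16.9, 8.48 and 21.8 normalized read counts at d0 and 13.6, 11.3 and 12.9 at d1. It had 35.8, 26.3 and 30.4 at d4, 60.2, 66.9 and 46.6 at d15, and 40.3, 47.4 and 49.9 at d20. The libraries of these 3 days all lay above d0. At d10, with 15.9, 23.3 and 16.6, it overlapped d0, as *A4GALT* did. The first and second d7 libraries held 60.2 and 75.1, and the third held 23.3.

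The log2 fold change of *ST8SIA1* against d0 was 1.01 ± 0.33 at d4 (adjusted p = 0.0101), 1.62 ± 0.33 at d7 (adjusted p = 0.000207), 1.89 ± 0.33 at d15 (adjusted p = 2.63e-05) and 1.57 ± 0.33 at d20 (adjusted p = 0.000319). Without the third d7 library the d7 value was 2.12 ± 0.27 (adjusted p = 6.93e-09). Without the second d0 library, which held the lowest value, the d4 value was 0.64 (adjusted p = 0.0926). At d1 (-0.21, adjusted p = 0.605) and d10 (0.30, adjusted p = 0.433) *ST8SIA1* did not pass. The difference between d15 and d10 was 1.59 (adjusted p = 0.000178), and that between d20 and d15 was -0.32 (adjusted p = 0.391). The means of d15 and d7 were not separated (0.27, adjusted p = 0.51), and without the third d7 library the difference between d15 and d7 turned to -0.23, so which of these days had the highest mean rested on that library.

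*B4GALNT1*, the GM2 and GD2 synthase gene, was likewise lowest at d15. It had 325, 307 and 324 normalized read counts at d0, 475, 465 and 467 at d1, and 273, 298 and 328 at d4. Here d1 lay above d0 and d4 overlapped it. It had 560, 636 and 620 at d10, 190, 194 and 212 at d15, and 697, 655 and 644 at d20. The d15 libraries were the lowest of the series and the d20 libraries the highest. At d7 the third library, with 501, lay apart from the other two, with 325 and 321.

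The log2 fold change of *B4GALNT1* against d0 was 0.56 ± 0.11 at d1 (adjusted p = 0.000265), 0.92 ± 0.11 at d10 (adjusted p = 3.62e-07) and 1.06 ± 0.11 at d20 (adjusted p = 5.48e-08). It was -0.68 ± 0.11 at d15 (adjusted p = 1.52e-05). At d4 (-0.09, adjusted p = 0.489) and d7 (0.23, adjusted p = 0.0794) it did not pass, and at d7 it was 0.02 ± 0.08 without the third library. With libraries scaled to equal totals it was called lower at d4 (-0.29, adjusted p = 0.0333). At d7 it was called higher by DESeq2 (0.27, adjusted p = 0.0486). The same held without the first d7 library (0.33, adjusted p = 0.0193) or the second (0.34, adjusted p = 0.0156). From d10 to d15 it fell by 1.60 (adjusted p = 3.33e-11), and from d15 to d20 it rose by 1.74, a 3.34-fold change (adjusted p = 1.62e-11). Exons of *B4GALNT1* overlap those of *SLC26A10* on the opposite strand. *SLC26A10* had a mean of 64.1 and at most 85.2 normalized read counts, and the strand setting of the counting is not given in the sources used here.

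Counted per day, 5 of the 7 genes were higher at d1 and none was lower, while 59.8% of all tested genes were called, 31.3% higher and 28.5% lower. On d4, 5 were higher and *B4GALT5* was lower, beside 72.2% of all genes called, 36.9% higher and 35.3% lower. On d7, 4 were higher and none lower, beside 67.2% called, 34.6% higher and 32.6% lower. Most genes of the transcriptome were thus called on each day, and a share of called members near that background is not a result about them. On d10, 4 were higher and none lower (67.8% of all genes called, 37% higher and 30.7% lower). On d15, 3 were higher and 3 lower (76.5% called, 39.2% higher and 37.3% lower). On d20, 6 were higher and none lower (62.7% called, 32.5% higher and 30.2% lower). More members were called higher than lower on d1, d4, d7, d10 and d20, and as many lower as higher on d15. The median log2 fold change of the 7 genes was 0.46 on d1, 0.66 on d4 and 0.23 on d7. It was 0.34 on d10, 0.13 on d15 and 0.93 on d20. For all tested genes the median lay between -0.0005 and 0.03 on the 6 days. In the mean over all treated timepoints, 6 of 7 were higher than at d0 (70.4% called in either direction), and *B4GALT5* was not called (-0.08, adjusted p = 0.0703). With libraries scaled to equal totals, 4 were higher in that mean and *B4GALT5* was lower. Between the late days, 4 of 7 fell and 2 rose from d10 to d15 (79.8% called), and 1 fell and 3 rose from d15 to d20 (74.1% called).

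The ratio of the branch enzymes was taken within each library, where the scaling between libraries cancels apart from the pseudocount. The log2 ratio of *A4GALT* to *ST3GAL5* had a mean of -4.09 ± 0.38 at d0 (SD, n = 3). Compared with that mean it was shifted by -0.06 on d1, by 0.55 on d4 and by 0.91 on d7. On d10 the shift was -0.87, on d15 it was 2.83 and on d20 it was 0.06. The d15 libraries lay between 2.78 and 2.87, and the d10 libraries between -0.92 and -0.79, both outside the d0 libraries, which ran from -0.38 to 0.37. At d7 the libraries ran from 0.05 to 1.55, with the third one lowest, and without it the d7 mean was 1.33. With a library left out, the shift ran from 0.36 to 0.74 at d4, from -1.06 to -0.68 at d10 and from 2.64 to 3.01 at d15. The balance was thus above all d0 libraries at d4 and d15 and below them at d10. At d7 every library lay above the d0 mean, but the third lay within the range of d0. At d20 the balance overlapped d0 although both genes were above their d0 means. The ratio of *A4GALT* to *B4GALNT1* took a like course, with differences of 1.30 at d4, -0.67 at d10, 2.89 at d15 and -0.07 at d20. These ratios are descriptions, since they share the values tested above.

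**Figure D3:**
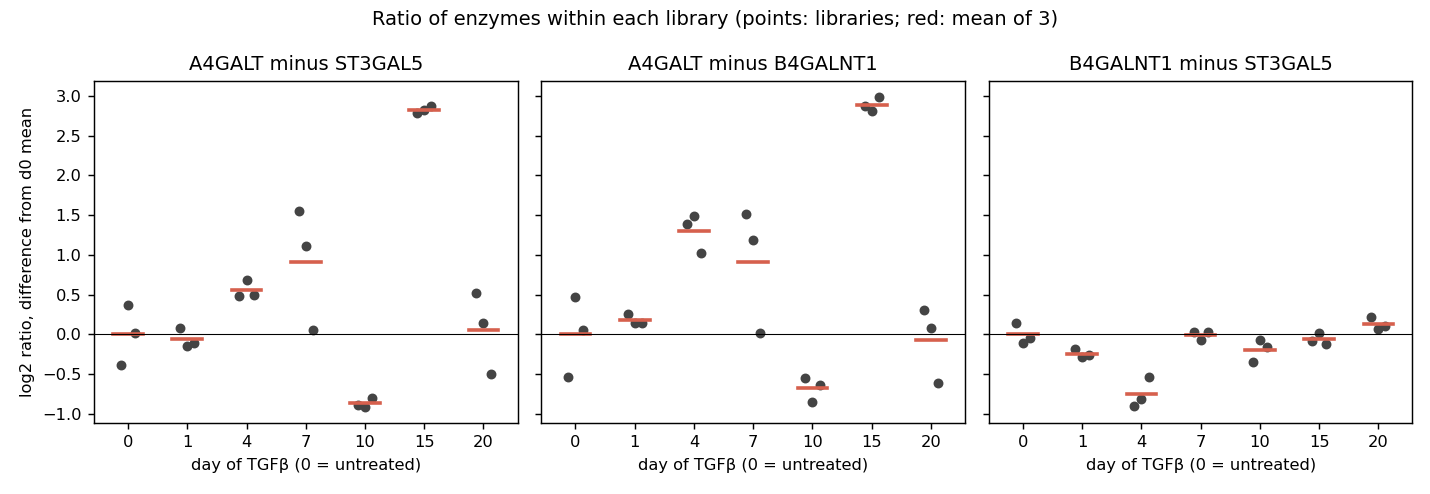
Log2 ratio of 2 enzyme genes within each library, as the difference from the d0 mean (y axis), by day of TGFβ (x axis, days at even spacing), with a point per library and a red bar for the mean of 3. The *A4GALT* to *ST3GAL5* ratio stands at 2.83 at d15 and -0.87 at d10, while the *B4GALNT1* to *ST3GAL5* ratio stays between -0.90 and 0.21 in every library.

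Within the ganglioside branch, the log2 ratio of *ST8SIA1* to *ST3GAL5* was 2.51 above the d0 mean at d15, with libraries from 2.06 to 2.85, and -1.01 at d1. The ratio of *B4GALNT1* to *ST3GAL5* moved less, from -0.75 at d4 to 0.13 at d20. Over the 21 libraries the log2 values of *ST3GAL5* and *B4GALNT1* had a Pearson r of 0.88, those of *A4GALT* and *ST8SIA1* 0.67, those of *UGCG* and *B4GALT6* 0.76, and those of *A4GALT* and *ST3GAL5* -0.50. These values describe 7 timepoints with 3 libraries each, and libraries of a timepoint share their treatment.

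The genes with the most similar course over the 21 libraries differed between the members. For *ST3GAL5* they were *FKBP1A* (r = 0.98), *RECQL* (0.97) and *PSMD2* (0.96), and for *B4GALNT1* they were *NEDD8* (0.98), *ACO1* (0.97) and *MLLT11* (0.97). For *A4GALT* they were *PPP1R3B* (0.93), *SIL1* (0.92) and *GRINA* (0.92), and for *ST8SIA1* they were *F2R* (0.94) and the collagen genes *COL6A1* (0.94) and *COL5A2* (0.92). The mean of *COL6A1* was 83.6 at d0 and 517 at d15. For *UGCG* the most similar were *IGF2BP2*, *STX2* and *SDCCAG8* (0.93 to 0.94), for *B4GALT6* they were *FKBP14*, *RGMB* and *PWWP2A* (0.84 to 0.92), and for *B4GALT5* they were *SCARA3* (0.92) and the cell division genes *IQGAP3* (0.91) and *NDC80* (0.91).

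Proliferation genes also differed between the days. The summed value of 10 of them lay between 60668 and 62733 in the d0 libraries, between 54393 and 55416 at d10, between 20647 and 21178 at d15, and between 60027 and 62664 at d20. All 10 were lower on d4, d7 and d15 (*TOP2A*, a topoisomerase of dividing cells, by a log2 fold change of -1.22 at d15). On d15 *ST3GAL5*, *B4GALNT1* and *B4GALT5* had their lowest means and *A4GALT* its highest. The third d7 library had 56058, against 42798 and 43660 in the other two. The part of proliferation in the members' values was not tested. All 6 markers of basal mammary epithelium were above 3 reads in every library, and of 6 luminal markers *ELF5* alone was not. The summed value of 6 fibroblast markers was 492 to 511 at d0 and 27549 to 29778 at d20. On both days 3 of the 6 were above 3 reads in all libraries, and the part of these markers in the members' values was not tested. The leukocyte list had a summed value of 370 to 377 at d0, 789 to 820 at d4, 729 to 783 at d15 and 625 to 673 at d20, with 1 or 2 of its 5 genes above 3 reads in all libraries of a timepoint. The 4 endothelial markers summed to 81.1 to 105 at d0 and 268 to 290 at d15, with 3 of 4 above 3 reads on both days, and to 22.9 to 23.5 at d10. The 4 neural markers summed to 1991 to 2159 at d0 and 1654 to 1692 at d15, with *MBP* and *TUBB3* above 3 reads throughout. *PTPRC* and *CD3E* of leukocytes, *DCN* and *LUM* of fibroblasts, *CDH5* of endothelium and *SOX10* of neural cells had at most 3 reads in all libraries of every timepoint. The part of these lists in the members' values was not tested.

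The rest of the pathway was read from lists of 51 tested genes, beside the 76.5% of all genes called at d15 (39.2% higher, 37.3% lower) and the 62.7% called at d20 (32.5% higher, 30.2% lower). Of 6 tested genes of the ganglioside branch after *ST3GAL5*, 6 were higher at d15 and 4 were higher and 1 lower at d20, with median log2 fold changes of 0.58 and 0.45, against 0.01 and 0.00 for all tested genes. *ST3GAL1*, which sialylates gangliosides and O-glycans, rose on all 6 days, from a mean of 211 ± 10.7 at d0 (SD, n = 3) to 961 ± 26.1 at d4, a log2 fold change of 2.18 (adjusted p = 3.64e-16). *ST6GALNAC5*, a ganglioside sialyltransferase gene, went from 39.7 at d0 to 125 at d20, a log2 fold change of 1.64 (adjusted p = 3.24e-09). *ST6GALNAC6*, which acts on gangliosides and globosides, was highest at d15, with a log2 fold change of 1.06.

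The genes after *A4GALT* moved in both directions. Of 5 tested, 2 were higher and 1 lower at d15, with a median log2 fold change of -0.14, and 3 were higher and none lower at d10, with a median of 0.32, where 67.8% of all genes were called and 37% were higher. The sialyltransferase genes *ST3GAL2* and *ST6GALNAC6* stand in this list and in the ganglioside list, and they were the 2 genes higher at d15 and 2 of the 3 higher at d10. *B3GALNT1*, the globoside (Gb4) synthase gene that acts on the product of A4GALT and is named here after its values were seen, was lower at d4 (-0.93, adjusted p = 1.97e-06), at d7 with the third library included (-0.75, adjusted p = 4.01e-05) and at d15 (-0.70, adjusted p = 6.35e-05), and higher at d10 (0.32, adjusted p = 0.04). At d1 (-0.06, adjusted p = 0.723) and d20 (-0.12, adjusted p = 0.44), where *A4GALT* was called higher, it did not pass.

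**Figure D4:**
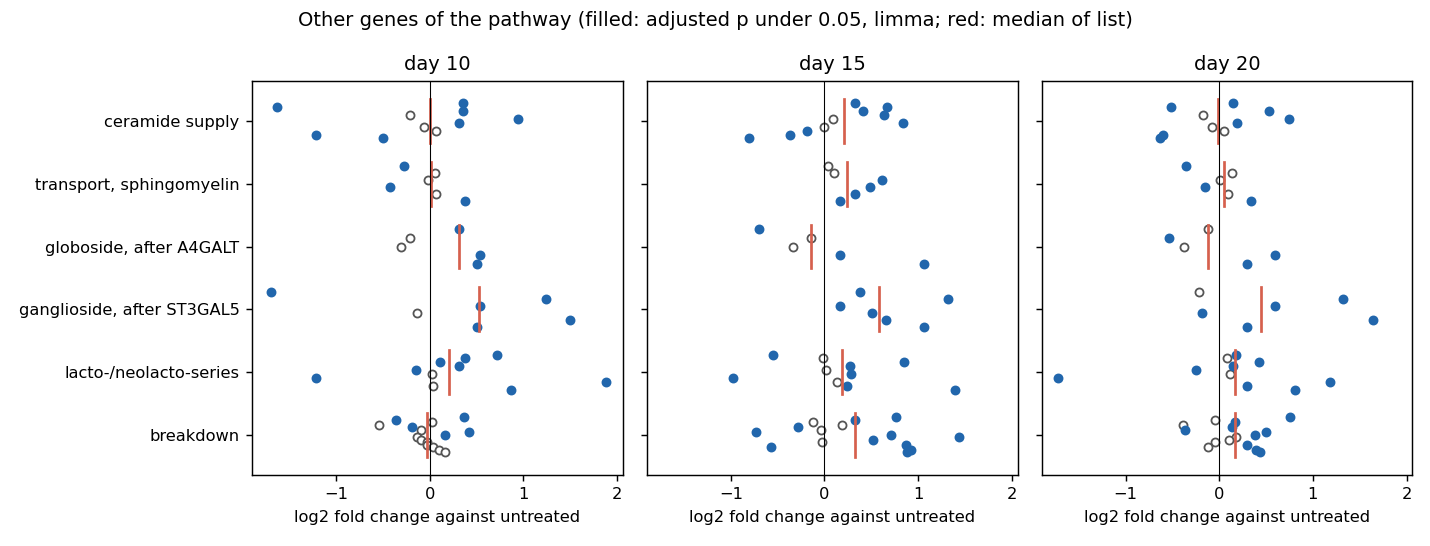
Log2 fold change against untreated cells (x axis) of the tested genes of 6 pathway lists (y axis) at days 10, 15 and 20 of TGFβ, with filled points where the adjusted p was under 0.05 and a red bar at the median of each list. At d15 all 6 points of the ganglioside list lie above 0, and the median of the globoside list is -0.14.

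Genes of ceramide supply moved in both directions. Of 10 tested genes of ceramide supply, 5 were higher and 3 lower at d15 and 4 higher and 3 lower at d20, with medians of 0.21 and -0.01. Here 8 and 7 of 10 were called, beside 76.5% and 62.7% of all genes, so these counts are no result about the list. *CERS6*, a ceramide synthase gene with the highest mean of that list, was higher at d15 by 0.64 (adjusted p = 6.54e-06) and did not pass at d20 (-0.18, adjusted p = 0.131). Of 6 genes for transport and sphingomyelin synthesis, 4 were higher at d15 and none lower, and *SGMS2*, a sphingomyelin synthase gene, was higher at d4 by 0.55. The single tested gene of the galactosylceramide route, *UGT8*, was called at d15 alone (0.46, adjusted p = 0.0125).

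In the lacto- and neolacto-series, 5 of 10 tested genes were higher and 2 lower at d15, and 6 were higher and 2 lower at d20, beside 76.5% and 62.7% of all genes called. *ST3GAL4*, a sialyltransferase gene, was higher on all 6 days (by 1.53 at d4), and *B4GALT1*, a galactosyltransferase gene that also serves glycoproteins, was higher by 0.97 at d4. The fucosyltransferase genes went apart: *FUT3* was lower at d20 by a log2 fold change of -1.72 (adjusted p = 3.14e-05), and *FUT4* was higher by 1.18 (adjusted p = 0.00117). Of 15 tested genes of glycosphingolipid breakdown, 8 were higher and 3 lower at d15, and 8 were higher and 1 lower at d20, again beside 76.5% and 62.7% of all genes. *PSAP*, which encodes the precursor of the saposins, had the highest mean of them and rose by 0.93 at d15 (adjusted p = 7.76e-11). Over the 6 days and 51 genes, 149 of 306 comparisons were called higher and 56 lower, but 97 were higher and 117 lower when libraries were scaled to equal totals, so the balance of directions in these lists depends on the scaling.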

How the data were processed

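The RNA-seq data comprised 21 libraries of HMLE cells at 7 timepoints. The authors deposited a normalized signal per gene symbol, in which the reads of each gene were divided by 1 size factor per library. The submitters' processing notes name STAR 2.7, Salmon 1.4 and hg19, without their roles; the strand setting and annotation are not given in the sources used here. All values (100%) came out as whole reads (tolerance 0.1 reads). Genes with a mean of at least 10 (13343) were compared by limma 3.58.1 (R 4.3.3) after log2 transformation of the value + 1 (all timepoints in 1 fit, eBayes with a trend, two-sided), with Benjamini-Hochberg adjustment over all genes of a contrast and a threshold of 0.05. Fold changes are on that log2(value + 1) scale and understate low genes.

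Alternatives were a pseudocount of 10, no filter (19546 genes), rescaling to equal totals, quantile normalization, a fit of only the timepoints compared, edgeR 4.0.16 and DESeq2 1.42.0 on recovered reads, a minimum 2-fold change, and each library of the timepoints compared left out in turn. On simulated data for d20 against d0 (13376 genes, 199 changed and tested), limma called 186 changed and 18 unchanged genes. That simulation drew every library from the d0 means with the same dispersion for every gene, and changed the chosen genes 2-fold. It therefore does not cover a contrast in which most genes are called, as in the data, or the spread of the d7 libraries. Promoter windows (250 bases before the start site, RefSeq, GRCh38.p14) were matched by symbol for 5 of 7 members; transcript lengths came from GENCODE. The members and gene lists were chosen with earlier results of these data known. Named are the members, the 3 genes most like each, the EMT genes *CDH1*, *VIM* and *ZEB1*, and from each list the gene with the highest mean and those changed at least 2-fold at d20 or on 3 days; further EMT genes that met this rule are left out. Python 3.11.15 and matplotlib 3.10.9 drew the figures.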

Additional observations from a re-analysis of the deposited data

Results flagged for a closer look

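3 genes were called higher than d0 on some days and lower on others. For each, the day of the largest rise was set directly against the day of the largest fall with limma. These genes and days were picked from the same values, so the adjusted p of these contrasts adds no support to the calls against d0. *ST3GAL5* was higher at d1, d4, d10 and d20 and lower at d15, and d10 exceeded d15 by 1.73 ± 0.11 on the log2 scale (SE, adjusted p = 5.18e-12). *B4GALNT1* was higher at d1, d10 and d20 and lower at d15, and d20 exceeded d15 by 1.74 ± 0.11 (adjusted p = 1.62e-11). *B4GALT5* was higher at d7 and lower at d4 and d15, and d7 exceeded d15 by 0.49 ± 0.05 (adjusted p = 2.53e-08). The increase of *B4GALT5* at d7 (0.12, adjusted p = 0.0414) was lost without a filter on low values, under quantile normalization, in a fit of the compared timepoints alone, with edgeR, and without any 1 of the d0 libraries, the first d7 library or the third d7 library, and it turned to -0.076 with libraries scaled to equal totals. The difference between d7 and d15 passed under every one of these alternatives that does not leave out a d0 library.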

How the results depend on the processing

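No paired analysis was possible because no replicate number is given in the column names. Of the log2 fold changes of single genes under the alternatives, 949 kept their direction and side of the threshold, 30 lost the call, 19 gained it and 10 changed sign. With libraries scaled to equal totals, *B4GALT5* turned to -0.076 at d7 and -0.13 at d20, and *B4GALT6* to -0.032 at d15 and -0.011 over all treated timepoints. Under quantile normalization *B4GALT5* turned to -0.033 at d20. With 1 library left out, values ran from 0.00 to 0.46 for *A4GALT* at d10 (-0.0024 without the first d0 library), from -0.57 to 0.057 for *ST8SIA1* at d1, from -0.061 to 0.57 for *ST8SIA1* at d10, from -0.23 to 0.60 for *ST8SIA1* at d15 against d7, and from -0.093 to 0.0015 for *UGCG* at d20 against d15.

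With equal totals, counts of members called higher became 3 at d1, 4 at d4 and 2 at d7. They became 3 at d10, 5 at d20 and 4 over all treated timepoints. Members called lower then became 2 on d4 and 1 on each of d1, d7, d10 and d20 and over all treated timepoints. The member lower at d7 was *B4GALT6*, and those lower at d4 were *B4GALT5* and *B4GALNT1*. Quantile normalization gave 1 lower at d1, d10 and over all treated timepoints, edgeR gave 1 over all treated timepoints, and a fit of the compared timepoints alone gave 1 lower at d1. With a change of at least 2-fold as well, 0 members were higher on d1, 2 on each of d4, d7 and d20 and over all treated timepoints, and 1 on d10, 0 were lower at d4 and at d15, and 2 were lower at d15 against d10. With 1 library left out, 0 to 1 member was lower over all treated timepoints (1, *B4GALT5*, without the third d7 or the second d20 library), and 3 to 6 were higher at d7. The *A4GALT* to *ST3GAL5* balance at d15 was 2.26 with a pseudocount of 10, and 2.64 to 3.01 with a library left out. The pathway lists had 97 calls higher and 117 lower with equal totals, against 149 and 56. The cause of these differences was not tested, beyond the shift of the median of all genes that equal totals bring. *A4GALT* and *ST8SIA1* had at most 71 and 74 reads in a library, which limits the precision of their fold changes.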
